A study of Mus musculus with 24 samples.

Results

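The blood-brain barrier is built by endothelial cells of brain capillaries, which are sealed to each other by tight junctions and carry nutrients, lipids and hormones across the vessel wall through dedicated transporters. The genes described here are 10 markers of these cells: the junction genes Cldn5 and Ocln, the transporter genes Slc38a5, Slc2a1, Mfsd2a, Abcb1a, Slco1c1 and Slc7a5, and the surface protein genes Pecam1 and Ly6c1. They were taken by their symbols from a table of 33000 genes, each symbol matched 1 row, and all 10 passed the filter on low counts together with 14621 genes in all. They were chosen with the difference between GFAP-IL6 and WT mice already known, so for them that difference is a description: no p is printed, and calls by the fit stand only as counts beside the share over all genes. Interleukin 6 is an inflammatory cytokine that signals through the transcription factor STAT3, and inflammation of the brain is known to alter its endothelium. The encoded proteins are not particular to endothelium: Slc2a1, Slco1c1 and Slc7a5, for example, are also used by other brain cells, and Pecam1 is also carried by leukocytes. Bulk tissue does not show which cells the reads of any of the 10 genes came from, Slc38a5 and Ly6c1 included.

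Frontal cortex RNA came from 3 WT mice (strain C57BL/6) and 3 homozygous GFAP-IL6 mice, 3 months old. The transgene makes Il6 in astrocytes from the Gfap promoter. Each mouse gave 4 libraries by 3'Pool-seq, a method that primes cDNA at the polyA tail and sequences the 3' ends of transcripts. The tagmentation step, in which cDNA is cut and tagged, received 2 ng or 1 ng, each in sets labelled A and B whose difference the labels do not give. The mouse was the replicate for genotype. After reverse transcription the barcoded samples were joined, and amplification and tagmentation ran on pools, so mice that share a pool are not independent repeats of a cDNA amount or a set. The labels do not say which libraries shared a pool.

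Between 1524165 and 12256374 reads were counted per library, and between 7852743 and 37582644 per mouse after the 4 libraries were summed. Levels are CPM, read counts scaled to a common library size after TMM scaling, and since reads come from 3' ends they were not divided by gene length and are compared only within a gene. Il6 was counted 0 to 5 times per WT mouse and 30 to 163 times per GFAP-IL6 mouse, as the labels would have it. Gfap, for which the labels give no direction, was at 20.0 CPM in WT and 109.6 CPM in GFAP-IL6 mice. Neuronal markers were high in every mouse (Snap25, a synaptic vesicle fusion protein, at 3204 to 4033 CPM). WT mouse 3 stood apart in 9 choroid plexus genes, which summed to 4498 CPM there and to between 301 and 1023 CPM in the other 5 mice. Their part in the results below was not tested, and values without this mouse are given where they move by over 1.5 times or change a call.

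The positions of the 10 genes were taken from GENCODE vM21 on mm10. Slc38a5 (ENSMUSG00000031170.12) lies on the plus strand of chromosome X from 8271133 to 8280179, with 15 exons, of which the last spans 8279752 to 8280174. No annotated gene overlaps it. Cldn5 is a gene of 1 exon on chromosome 16 (18776847 to 18778262) and Ocln lies on chromosome 13 (100496507 to 100552718). Slc2a1 and Mfsd2a are both on chromosome 4 (119108711 to 119137983 and 122946850 to 122961188). The last exon of Slc2a1 is overlapped on the other strand by Gm12868 and that of Slc7a5 (chromosome 8, 121881150 to 121907694) by Gm20388, and both overlapping genes had 0 counts in all 24 libraries. Abcb1a is on chromosome 5 (8660077 to 8748575), Slco1c1 on chromosome 6 (141524368 to 141570177) and Pecam1 on chromosome 11 (106654217 to 106750628). Ly6c1 (chromosome 15, 75044018 to 75048830) shares 99.2% of 123 nt near a transcript end with Ly6c2, so that reads between this pair are uncertain. Ly6c2 itself was at 0 to 0.337 CPM in the 6 mice.

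RefSeq start regions on GRCm38.p6, 300 bases around the annotated start, were held for 8 of the 10 genes in 10 windows. The GC box GGGCGG, a short element read here on both strands, was found for 4 of the 8 genes. It was in 5 of their 10 windows and in 35.66% of 32851 such regions of all genes. The ETS core AGGAAG was found for 3 of the 8 genes, in 3 of the 10 windows and in 35.35% of all regions. One of these genes was Abcb1a, with a match at 8566977 to 8567002 on chromosome 5. That window lies far upstream of the GENCODE start of Abcb1a at 8660077 and does not describe the sequence around it. The STAT letters TTCNNNGAA, which read the same on both strands, were in 0 of the 10 windows and in 8.30% of all regions, which says only that these letters are not within these windows. The stretches below show 1 GC box match for each of the 4 genes that had it, Slc38a5, both junction genes and Slc2a1. Slc38a5, Ocln and Slc2a1 each had a further match that is not shown. Since 35.66% of all regions hold the box, no likeness between these genes is read from it. The stretches are written 5' to 3' on the strand of the gene, and the capitals mark the box or its reverse complement. A match is a description and not a binding site.
Slc38a5 (chrX:8271307-8271332, plus strand): gggggggggaGGGCGGccctaggagg
Cldn5 (chr16:18776792-18776817, plus strand): ggggcagagtCCGCCCccgagacttc
Ocln (chr13:100552526-100552551, minus strand): gcacagccccGGGCGGgttcggccag
Slc2a1 (chr4:119108690-119108715, plus strand): tctcagagtcCCGCCCcggacgtgct

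Slc38a5, which encodes a carrier of glutamine and other small neutral amino acids, was the member with the largest difference between genotypes. It was at 4.52, 5.54 and 6.29 CPM in WT mice 1, 2 and 3 and at 23.3, 20.99 and 28.5 CPM in GFAP-IL6 mice 1, 2 and 3. Every GFAP-IL6 mouse was more than 3 times as high as the highest WT mouse. Averaged over mice, WT stood at 5.45 ± 0.889 CPM and GFAP-IL6 at 24.3 ± 3.85 CPM (both SD, n = 3), a ratio of 4.45 and a log2 fold change of 2.20 (standard error 0.164). This fold change was above that of 99.7% of all genes tested. The counts behind it were 87, 100 and 48 reads in the WT mice and 221, 438 and 1100 reads in the GFAP-IL6 mice.

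**Figure D1:**
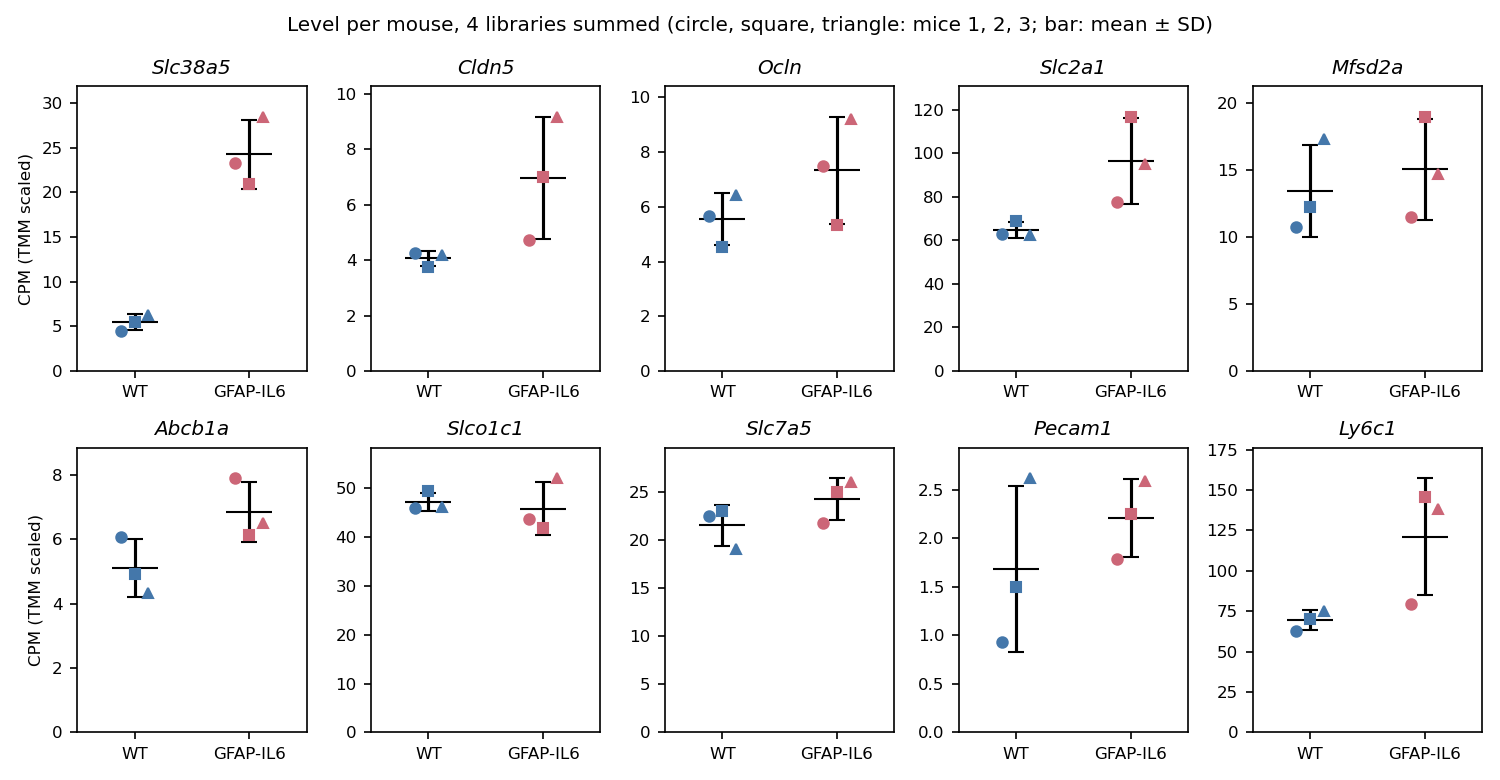
Level of each of the 10 genes in CPM (TMM scaled, y axis from 0, a scale for each gene) in 3 WT and 3 GFAP-IL6 mice, with the 4 libraries of a mouse summed; symbols mark mice 1, 2 and 3, and bars the mean ± SD. Slc38a5 shows the widest gap, from at most 6.29 CPM in WT to at least 20.99 CPM in GFAP-IL6 mice, while Slco1c1 lies between 41.8 and 52.0 CPM in all 6 mice.

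The difference in Slc38a5 was present in each technical repeat of the same mice. Over the 12 WT libraries it ranged from 2.79 to 8.77 CPM with a median of 5.32, and over the 12 GFAP-IL6 libraries from 17.7 to 30.8 CPM with a median of 24.7. No GFAP-IL6 library fell into the range of the WT libraries, although the WT libraries held only 11 to 38 reads of it. In set A the log2 fold change was 2.20 (standard error 0.259) for the 2 ng libraries and 2.01 (standard error 0.246) for the 1 ng libraries. The corresponding values of set B were 2.15 (standard error 0.245) and 2.50 (standard error 0.257). The WT mean in the 1 ng libraries of set B was 3.83 ± 0.914 CPM (SD, n = 3), against 5.98 to 6.47 CPM in the other sets.

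**Figure D2:**
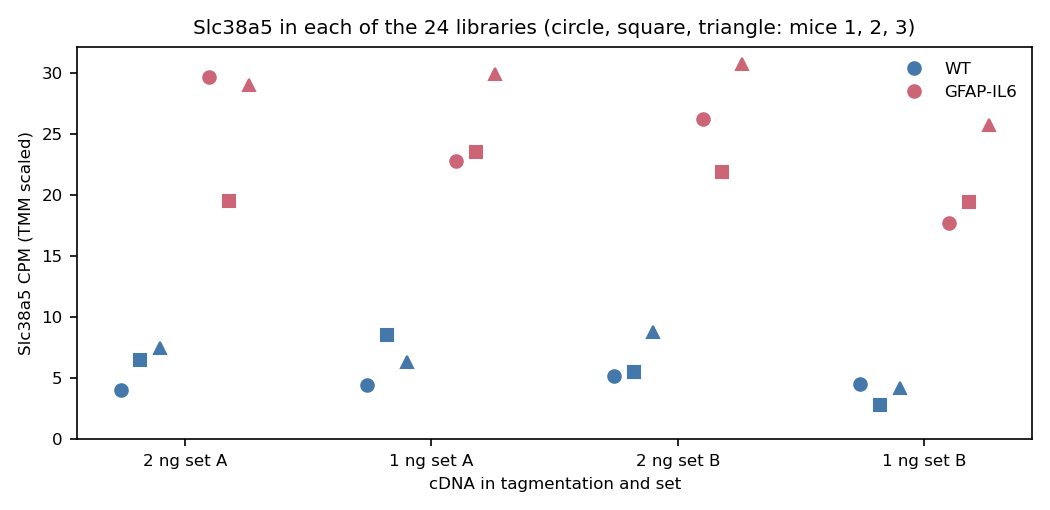
Slc38a5 in CPM (TMM scaled within a set, y axis from 0) in each of the 24 libraries, by cDNA amount and set on the x axis, with colours for genotype and symbols for mice 1, 2 and 3. All 12 GFAP-IL6 libraries, at 17.7 to 30.8 CPM, lie above all 12 WT libraries, at 2.79 to 8.77 CPM.

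A gene counted as called here had a Benjamini-Hochberg adjusted p under 0.05 in edgeR's quasi-likelihood test, adjusted over all genes tested, and an absolute log2 fold change above 1. By this rule 1 of the 10 genes, Slc38a5, was called higher in GFAP-IL6 mice in the summed libraries, where 1.20% of all genes tested were. With the adjusted p alone 3 of the 10 were called, Slc38a5, Slc2a1 and Ly6c1, against 1.80% of all genes in either direction. Within the sets Slc38a5 was again the called member in each, where 0.681% (2 ng, set A), 0.758% (1 ng, set A), 0.736% (2 ng, set B) and 0.748% (1 ng, set B) of genes were called higher. All 3 GFAP-IL6 mice lay above all 3 WT mice for 5 of the 10 genes, as they did for 8.43% of all genes tested. Because the genes were chosen on this contrast, nothing is read from these counts. The log2 fold change was positive for 9 of the 10 genes, beside 48.1% of all 14621 genes tested. Its median was 0.50 for the 10 genes, beside -0.0069 over all genes, and the 9 genes other than Slc38a5 ranged from -0.036 to 0.83.

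Of the junction genes, Cldn5 encodes claudin-5, the main sealing protein of the endothelial tight junction. It was at 4.26, 3.77 and 4.197 CPM in WT mice 1, 2 and 3 and at 4.74, 6.998 and 9.18 CPM in GFAP-IL6 mice 1, 2 and 3. The groups did not overlap, but GFAP-IL6 mouse 1 lay close to the WT mice and the 3 GFAP-IL6 mice spread widely. Its log2 fold change was 0.83 (standard error 0.231), and 1.002 without GFAP-IL6 mouse 1, at which it passed the rule for a call. Ocln encodes occludin, a membrane protein of the same junction. It was at 5.67, 4.54 and 6.43 CPM in WT and at 7.48, 5.32 and 9.23 CPM in GFAP-IL6 mice, so that the groups overlapped. Its log2 fold change was 0.44 (standard error 0.223), and between -0.10 and 0.78 within the sets. It was 0.20 without GFAP-IL6 mouse 3 and 0.19 after thinning all mice to the smallest total.

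Slc2a1 encodes the glucose transporter GLUT1, through which glucose enters the brain. It was at 62.8, 69.1 and 62.4 CPM in WT mice and at 77.8, 117 and 94.9 CPM in GFAP-IL6 mice 1, 2 and 3. The WT mice lay close together and all 3 GFAP-IL6 mice were above them, by different amounts. The log2 fold change was 0.58 (standard error 0.122) in the summed libraries and between 0.44 and 0.76 within the sets. Leaving out any 1 of WT mice 1 and 2 and GFAP-IL6 mice 2 and 3 ended the call by adjusted p alone, at log2 fold changes of 0.42 to 0.63.

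Mfsd2a encodes a carrier of lysophospholipids with omega-3 fatty acids that is also needed to hold down transcytosis. It was at 10.7, 12.2 and 17.3 CPM in WT and at 11.5, 19.0 and 14.7 CPM in GFAP-IL6 mice, with the groups overlapping. The WT mouse with the highest value was mouse 3, which stood apart in choroid plexus genes. The log2 fold change of Mfsd2a was 0.23 (standard error 0.191), 0.42 without WT mouse 3, 0.36 without GFAP-IL6 mouse 1, 0.083 without WT mouse 1 and 0.027 without GFAP-IL6 mouse 2, and 0.11 after thinning. Abcb1a encodes P-glycoprotein, the efflux pump that keeps many drugs out of the brain. It was at 6.08, 4.93 and 4.33 CPM in WT and at 7.90, 6.14 and 6.51 CPM in GFAP-IL6 mice, which do not overlap but nearly meet. Its log2 fold change was 0.37 (standard error 0.196), and 0.24 after thinning.

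Slco1c1 encodes a transporter of thyroid hormone. It was at 46.0, 49.3 and 46.0 CPM in WT and at 43.6, 41.8 and 52.0 CPM in GFAP-IL6 mice, and its log2 fold change of -0.036 (standard error 0.103) was the only negative value among the 10 genes. Its sign was not stable: it was 0.030 without GFAP-IL6 mouse 2, and within set A 0.096 with 2 ng and 0.012 with 1 ng. Slc7a5 encodes LAT1, the carrier of large neutral amino acids. It was at 22.5, 23.0 and 19.1 CPM in WT and at 21.8, 25.02 and 26.02 CPM in GFAP-IL6 mice, a log2 fold change of 0.17 (standard error 0.118), and of 0.11 without WT mouse 3. For both genes the groups overlapped and the difference was less than 2 times its standard error.

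Pecam1, which encodes the adhesion protein CD31, was the most thinly counted member with 17 to 100 reads per mouse. It was at 0.936, 1.49 and 2.62 CPM in WT and at 1.79, 2.25 and 2.59 CPM in GFAP-IL6 mice. Its log2 fold change of 0.55 (standard error 0.371) went with an overlap of the groups, and it passed the filter in 2 of the 4 sets. The value was 0.23 without WT mouse 1 and 0.91 without WT mouse 3. Ly6c1 encodes a small membrane-anchored protein of endothelial cells. It was at 62.8, 70.1 and 75.1 CPM in WT and at 79.5, 146 and 139 CPM in GFAP-IL6 mice 1, 2 and 3. GFAP-IL6 mouse 1 was near the WT mice in Ly6c1, as it was in Cldn5. The log2 fold change of Ly6c1 was 0.82 (standard error 0.166), between 0.75 and 0.93 within the sets, and 1.04 without GFAP-IL6 mouse 1. The call of Ly6c1 by adjusted p alone ended in DESeq2 and when any 1 of WT mice 1 and 2 and GFAP-IL6 mice 2 and 3 was left out.

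**Figure D3:**
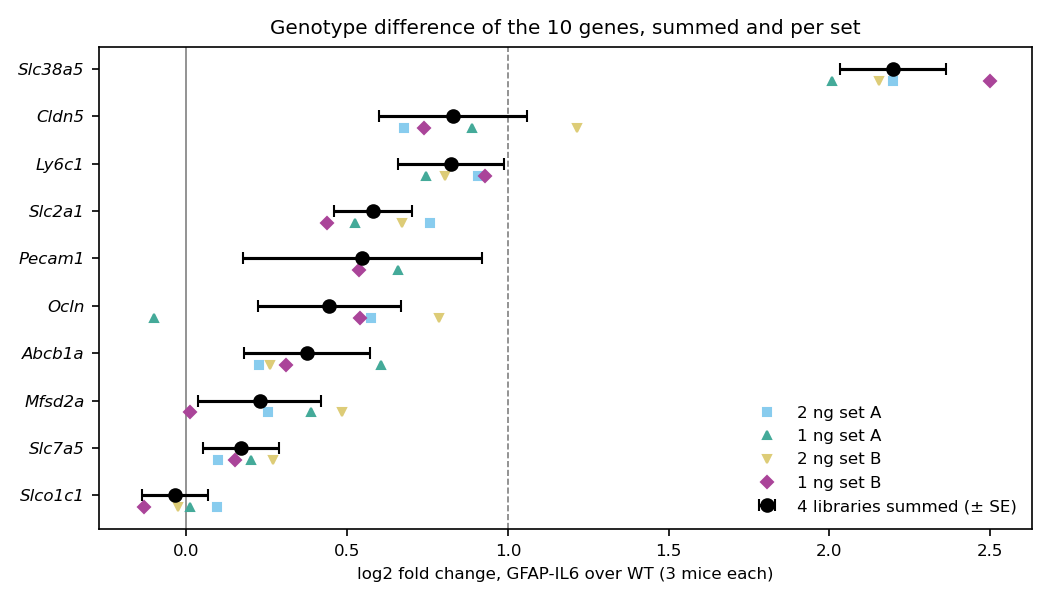
Log2 fold change of GFAP-IL6 over WT (x axis, 3 mice per genotype) for the 10 genes, as black points with standard errors for the summed libraries and coloured symbols for the 4 sets, with a dashed line at 1. Slc38a5 lies at 2.20 and the other 9 genes between -0.036 and 0.83.

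Other genes of vessels and their surroundings were then read from lists in the same genotype comparison. These lists too were chosen with earlier results of these data known. Their counts and p-values, here and below, are therefore a description and no independent support. Of 18 pan-endothelial genes, all 18 were tested and all 18 had a positive log2 fold change, beside 48.1% of all genes tested. Their median was 0.54, and 3 passed an adjusted p under 0.05 in edgeR, all higher in GFAP-IL6 mice. Podxl, a sialomucin of the luminal surface, rose from 5.36 ± 0.775 CPM in WT to 12.02 ± 2.10 CPM in GFAP-IL6 mice (SD over 3 mice, here and below), with a log2 fold change at 1.18 ± 0.18 (SE) and an adjusted p = 0.00153 in edgeR. Flt1, a receptor for vascular endothelial growth factor, rose from 19.0 ± 2.43 to 30.7 ± 3.44 CPM (log2 fold change 0.70, adjusted p = 0.00637, edgeR). Adgrl4, an adhesion receptor of endothelial cells, rose from 4.69 ± 0.470 to 8.16 ± 1.31 CPM (log2 fold change 0.82, adjusted p = 0.0346, edgeR). The count of 3 was 6 without GFAP-IL6 mouse 1, 1 without WT mouse 2 or GFAP-IL6 mouse 2, and 2 without any 1 of the other mice or with same-numbered mice as a block.

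The summed level of the 18 pan-endothelial genes was 364 to 390 CPM in WT and 422 to 481 CPM in GFAP-IL6 mice. In bulk tissue more endothelial cells and more RNA per cell cannot be told apart. Set against this sum, Slc38a5 was at 1.45 ± 0.285 CPM per 100 pan-endothelial CPM (SD, n = 3) in WT and at 5.28 ± 0.796 (SD, n = 3) in GFAP-IL6 mice. Cldn5 was at 1.08 ± 0.0847 and 1.498 ± 0.392 on the same scale, and Slc2a1 at 17.1 ± 1.01 and 20.9 ± 3.16. Slco1c1 was at 12.5 ± 0.588 in WT and at 9.97 ± 1.09 in GFAP-IL6 mice, and Slc7a5 at 5.69 ± 0.391 and 5.27 ± 0.121. Of the 5 genes whose CPM did not overlap between genotypes, Slc38a5 and Slc2a1 did not overlap in this ratio either, and Cldn5, Abcb1a and Ly6c1 did. Abcb1a was at 1.19 to 1.56 in WT and 1.28 to 1.88 in GFAP-IL6 mice, and Ly6c1 at 16.1 to 20.6 and 18.9 to 30.4. For Slco1c1 the ratio was lower in each GFAP-IL6 mouse (8.73 to 10.8) than in each WT mouse (11.8 to 12.9). These ratios are descriptions, with no test. The sum adds CPM over genes, so genes with high CPM weigh most in it. Those with the highest CPM, Cd34, Itm2a, Egfl7 and Pltp, had log2 fold changes of 0.22, 0.13, 0.011 and 0.19. All lay below the list median of 0.54, so the sum rose less than the typical gene of the list. Slc2a1, with a log2 fold change of 0.58, lay close to that median. Whether it rose more than the typical pan-endothelial gene was not tested.

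Of 11 other junction genes, 2 passed, both higher in GFAP-IL6 mice (3 without GFAP-IL6 mouse 1), and the median log2 fold change was 0.30. F11r, which encodes junctional adhesion molecule A, rose from 3.77 ± 0.655 to 9.72 ± 1.30 CPM (log2 fold change 1.42, standard error 0.192, adjusted p = 0.00053, edgeR). Lsr, which encodes the receptor angulin-1 of tricellular contacts, rose from 8.61 ± 0.901 to 20.7 ± 5.79 CPM (log2 fold change 1.31, standard error 0.185, adjusted p = 0.000796, edgeR). Both genes are also used by cells outside the endothelium. Tjp1, the scaffold protein ZO-1 that holds claudins in place, was at 23.99 ± 1.79 CPM in WT and 24.9 ± 3.99 CPM in GFAP-IL6 mice.

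Of 17 other barrier transporters 0 passed in edgeR or DESeq2 (3 at an unadjusted p under 0.05), with a median log2 fold change of 0.14, and 1 passed without WT mouse 3 or without GFAP-IL6 mouse 1. The values farthest from 0 were those of Abcc4, an efflux pump (0.69, standard error 0.251), and Slco2b1, an organic anion transporter (0.65, standard error 0.198). Abcb1b, the paralog of Abcb1a, was at 2.98 ± 0.668 CPM in WT and 3.37 ± 0.458 CPM in GFAP-IL6 mice. Of the 10 other Slc38 genes 9 were tested and 0 passed in edgeR or DESeq2 (0 at an unadjusted p under 0.05), with a median log2 fold change of 0.0046. The closest of them in substrates, Slc38a3, a glutamine carrier of astrocytes, was at 35.1 ± 2.26 CPM in WT and 33.6 ± 1.83 CPM in GFAP-IL6 mice (log2 fold change -0.050, standard error 0.1002). Farthest from 0 were Slc38a11 at 0.41 (standard error 0.488) and Slc38a6 at 0.25 (standard error 0.241). Of 11 other amino acid carriers 0 passed in either tool (0 at an unadjusted p under 0.05), among them Slc3a2, the heavy chain that pairs with Slc7a5, at 186 ± 8.45 CPM in WT and 209 ± 8.97 CPM in GFAP-IL6 mice. Farthest from 0 were Slc7a7 at 0.70 (standard error 0.337) and Slc1a5 at 0.45 (standard error 0.283).

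Wnt signals from neural cells to the endothelium through Fzd4 and its partners set up and maintain barrier gene expression. Of 19 genes of this pathway 17 were tested and 0 passed in edgeR or DESeq2 (6 at an unadjusted p under 0.05). The log2 fold change was positive for 13 of the 17, beside 48.1% of all genes tested, with a median of 0.22. It was negative for Ndp (-0.26), Wnt7b (-0.17), Fzd4 (-0.13) and Ctnnb1 (-0.076). Of the 6 genes at an unadjusted p under 0.05 in edgeR, Ndp alone was lower in GFAP-IL6 mice. Farthest from 0 were the transcription factor genes Foxq1 (log2 fold change 0.88, standard error 0.313) and Foxf2 (log2 fold change 0.87, standard error 0.384). Both were thinly counted, at 1.37 and 1.09 CPM in WT mice. Tspan12, at 8.37 CPM in WT mice, had a log2 fold change of 0.57 (standard error 0.146). Among 9 genes of veins, leaky vessels and activated endothelium 7 were tested and 4 passed, all higher in GFAP-IL6 mice. There were 3 when any 1 of WT mice 1 and 2 and GFAP-IL6 mice 2 and 3 was left out, and 5 without GFAP-IL6 mouse 1. Lrg1, a secreted glycoprotein of inflamed vessels, rose from 13.0 ± 2.51 to 80.5 ± 13.1 CPM (log2 fold change 2.61, adjusted p = 8.73e-08, edgeR). Vwf, the platelet-binding von Willebrand factor, rose from 2.10 ± 0.340 to 9.42 ± 1.24 CPM (log2 fold change 2.22, adjusted p = 1.68e-05, edgeR). Icam1, an adhesion molecule for leukocytes, rose from 1.75 ± 0.853 to 7.04 ± 1.76 CPM (log2 fold change 2.01, adjusted p = 0.00153, edgeR), and Ackr1, a chemokine-binding receptor of venules, from 37.5 ± 4.57 to 54.7 ± 8.76 CPM (log2 fold change 0.57, adjusted p = 0.0234, edgeR). Plvap, which forms the diaphragms of leaky vessels, was at 29.9 ± 3.29 CPM in WT and 27.5 ± 1.85 CPM in GFAP-IL6 mice.

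**Figure D4:**
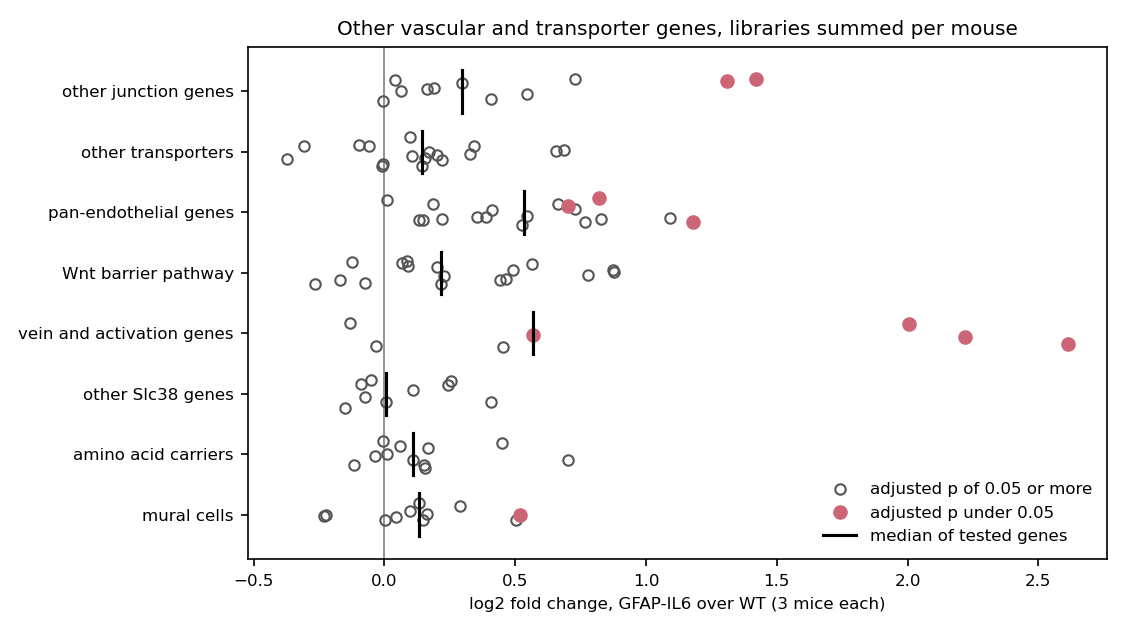
Log2 fold change of GFAP-IL6 over WT (x axis, libraries summed, 3 mice per genotype) of single genes in 8 lists, with filled points at an adjusted p under 0.05 in edgeR and a bar at the median of the tested genes of a list. Cdh5 and Esam stand in both the junction and the pan-endothelial list; the medians run from 0.0046 for the other Slc38 genes to 0.57 for the vein and activation genes.

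Markers of other cells moved with genotype beside these genes, and their part in the results was not tested. Of 11 microglia and leukocyte genes 9 were tested and 7 passed, all higher in GFAP-IL6 mice, and their sum was 226 to 248 CPM in WT and 344 to 440 CPM in GFAP-IL6 mice. Leaving out 1 mouse gave 4 to 7, with 4 without GFAP-IL6 mouse 3. The 5 with the smallest adjusted p were Aif1, Itgam, Ptprc, Cd68 and Cx3cr1. The tested genes that did not pass were P2ry12 and Ccr2. P2ry12, a microglia gene, was at 55.8 ± 2.56 CPM in WT and 55.0 ± 3.95 CPM in GFAP-IL6 mice (log2 fold change -0.018, standard error 0.0928). Ccr2 was thinly counted, at 0.301 CPM in WT and 0.751 CPM in GFAP-IL6 mice. Ptprc, the leukocyte marker CD45, rose from 1.88 ± 0.248 to 6.14 ± 1.87 CPM (adjusted p = 0.00144, edgeR), and Cd3e, a T cell marker, was at 0 to 0.207 CPM in the 6 mice. Of 12 mural cell genes 11 were tested and 1 passed, the pericyte gene Rgs5 (49.7 ± 7.33 to 71.6 ± 5.45 CPM, adjusted p = 0.0206, edgeR), which lost its call when any 1 of WT mice 2 and 3 and GFAP-IL6 mice 1 and 3 was left out. The mural list summed to 169 to 206 CPM in WT and 217 to 248 CPM in GFAP-IL6 mice, which do not overlap. Rgs5 alone was at 44.2 to 58.0 CPM in WT and 65.3 to 75.4 CPM in GFAP-IL6 mice, and the separation of the sums rests on it. The median log2 fold change of the 11 tested mural genes was 0.13. Of 7 astrocyte genes 1 passed, Gfap (log2 fold change 2.44, standard error 0.185, adjusted p = 1.59e-06, edgeR), and 2 passed without WT mouse 2. The astrocyte sums did not overlap either, at 1244 to 1350 CPM in WT and 1455 to 1637 CPM in GFAP-IL6 mice. The 5 red blood cell genes had 0 passing genes in edgeR or DESeq2 (1 at an unadjusted p under 0.05) and summed to 751 to 1034 CPM in WT and 702 to 958 CPM in GFAP-IL6 mice. The cortical neuron list (8 genes) and the choroid plexus list (6 tested) had 0 passing genes in both tools, with 0 and 1 genes at an unadjusted p under 0.05.

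The genes whose levels were most like that of Slc38a5 over the 6 mice, among 10735 tested genes with a mean of at least 5 CPM, were Ccl12, Pip4k2b, Fyb, Plek and Scamp2. Pearson's r of log2(CPM + 1) was 0.991 for Ccl12, a chemokine, and 0.990 for Scamp2. These 6 points share the division by genotype, so r is a description. Ccl12 was at 6.42 CPM in WT and 89.2 CPM in GFAP-IL6 mice, and Fyb, an adaptor protein of immune cells, at 4.94 and 15.5 CPM. Among the barrier genes the same r was 0.813 for Cldn5, 0.812 for Slc2a1, 0.809 for Ly6c1, 0.311 for Mfsd2a and -0.0996 for Slco1c1.

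The amount of cDNA and the set were not used to choose the genes, and these contrasts were tested within mice. Because amplification and tagmentation ran on pools, their p-values cover the spread between mice and not that between pools, are too small as tests of the amount or set, and compare these libraries. An effect of the amount or set and a difference between pools cannot be told apart. With 2 ng against 1 ng of cDNA, libraries of sets A and B summed and the mouse as a block, 5 of the 10 genes passed an adjusted p under 0.05 in edgeR, where 32.0% of all genes tested did. Slc2a1, Mfsd2a and Ly6c1 were higher with 2 ng and Abcb1a and Pecam1 higher with 1 ng, in 6 of 6 mice each. The log2 differences (2 ng minus 1 ng) were 0.24 for Slc2a1 (standard error 0.0395, adjusted p = 4.07e-08), 0.36 for Mfsd2a (standard error 0.0931, adjusted p = 0.000666) and 0.19 for Ly6c1 (standard error 0.0361, adjusted p = 2.43e-06), all from edgeR's quasi-likelihood test. For Abcb1a the log2 difference was -0.52 (standard error 0.145, adjusted p = 0.0017, edgeR), with a mean of 4.71 CPM at 2 ng and 6.90 CPM at 1 ng, here and below scaled to the library total. For Pecam1 it was -0.79 (standard error 0.268, adjusted p = 0.0135, edgeR), a call that ended in DESeq2, which left 4 genes, and without GFAP-IL6 mouse 3. Slc38a5 was at 16.3 CPM with 2 ng and 14.0 CPM with 1 ng over the 6 mice (log2 difference 0.12, standard error 0.0918, adjusted p = 0.371, edgeR). Without the mouse block 1 gene, Abcb1a, passed, and without WT mouse 3 there were 8. Taken apart by set, the mean difference in log2(CPM + 1) over the 6 mice was 0.43 in set A and 0.091 in set B for Slc2a1, and 0.60 and 0.22 for Mfsd2a. For Abcb1a it was -0.27 and -0.62, for Pecam1 -0.38 and -0.56, and for Ly6c1 0.22 and 0.30. All 5 genes kept their sign in both sets, at sizes that differed several-fold for Slc2a1. For Slc38a5 the difference was -0.033 in set A and 0.47 in set B.

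**Figure D5:**
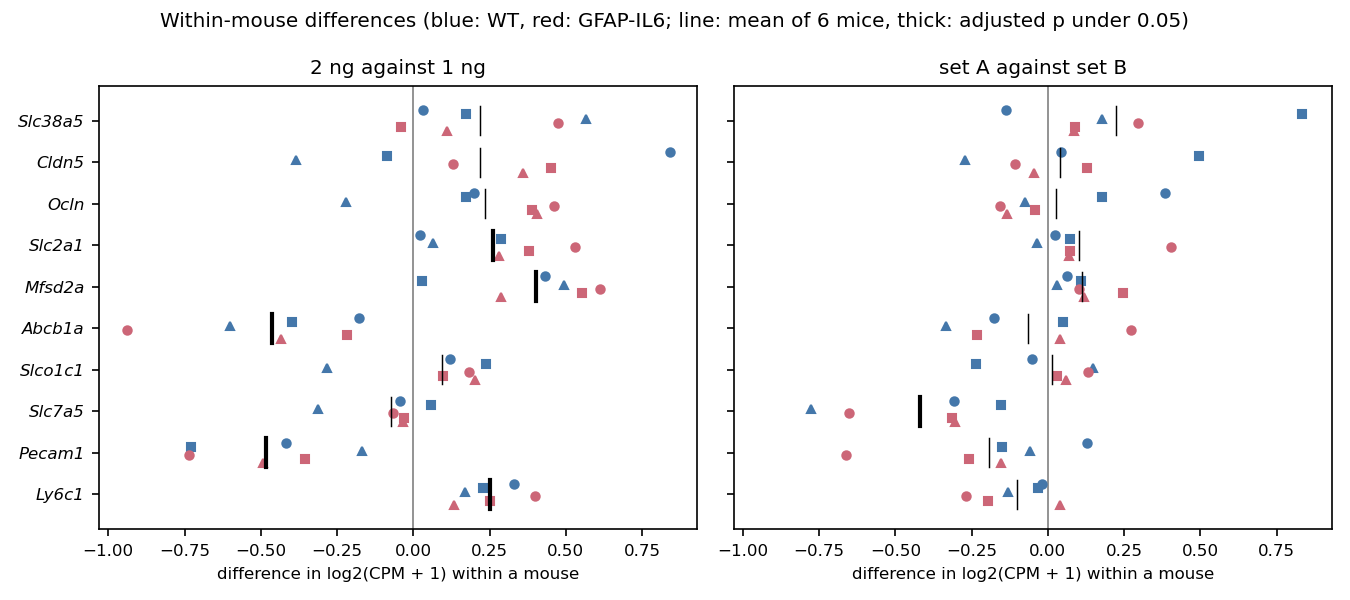
Difference in log2(CPM + 1) within each of 6 mice (x axis) between 2 ng and 1 ng of cDNA (left) and between sets A and B (right) for the 10 genes; colours mark genotype, symbols mice 1, 2 and 3, and lines the mean over mice, thick at an adjusted p under 0.05 in edgeR. Abcb1a and Pecam1 lie below 0 at the left in 6 of 6 mice, and Slc7a5 below 0 at the right in 6 of 6.

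Between sets A and B, with both cDNA amounts summed, 1 of the 10 genes passed, where 22.6% of all genes tested did. Slc7a5 was at 19.5 CPM in set A and 26.0 CPM in set B, lower in set A in 6 of 6 mice (log2 difference -0.40, standard error 0.0897, adjusted p = 0.000217, edgeR). The mean difference of Slc7a5 in log2(CPM + 1) was -0.25 with 2 ng and -0.53 with 1 ng. For Slc38a5 the log2 difference was 0.19 (standard error 0.115, adjusted p = 0.255, edgeR). A change of the genotype difference with the cDNA amount or the set was tested as an interaction. In edgeR 0 of the 10 genes and 0 of all genes passed in either test, and 0 also in DESeq2. At an unadjusted p under 0.05 there were 538 of 13961 genes for the amount, with Slc2a1 as 1 of the 10, and 597 of 14167 genes for the set, with 0 of the 10. For Slc38a5 the log2 genotype difference with 2 ng minus that with 1 ng was -0.095 (standard error 0.230), and that in set A minus that in set B -0.25 (standard error 0.261).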

How the data were processed

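The authors cut polyA stretches off the 3'Pool-seq reads, used STAR 2.4 for alignment (mm10 per their methods) and featureCounts with GENCODE vM6 genes for counting. They deposited whole-number counts for 24 libraries, unnormalized, with each gene's length. Strand use in counting is not given in the sources used here.

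Samples were grouped by their titles. The 4 libraries of a mouse were summed, and genotypes were compared with edgeR 4.0.16 (R 4.3.3), quasi-likelihood test, filterByExpr and TMM, p-values adjusted by Benjamini-Hochberg over all genes tested. cDNA amounts and sets were compared on 12 summed libraries with mouse as a block. Within-mouse differences plotted used a pseudocount of 1. Alternatives were DESeq2 1.42.0, DESeq2 size factors, other filters and thresholds, a block of same-numbered mice, each mouse left out, and thinning to 7852743 counts. The study's methods name DESeq2. Similar transcript ends (last 300 nt, at least 100 nt aligned) were found with minimap2 2.31-r1302. Sequences are from RefSeq, and regions on 1 chromosome were left out of the motif shares.

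The 10 genes and all lists were chosen with earlier results of these data known. Named from each list were up to 5 genes with the smallest adjusted p under 0.05, otherwise the 2 tested genes farthest from 0, and others, such as Tjp1, Slc38a3, Slc3a2, Plvap, Cd3e and Snap25, were chosen after their values were seen. Reads are not independent molecules, so depth covers counting error only.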

Additional observations from a re-analysis of the deposited data

Results flagged for a closer look

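Within-mouse differences in log2(CPM + 1) were screened for a mouse far from the other 5, in 20 groups of 6 mice, and 3 were found, where chance gives about 1 in 20. For Slco1c1 between 2 ng and 1 ng, WT mouse 3 was at -0.28 and the others between 0.097 and 0.24, a gap of 0.731 of the whole range. For Slc7a5 in the same contrast, WT mouse 3 was at -0.31 and the others between -0.066 and 0.057, a gap of 0.669 of the range. For Slc2a1 between sets A and B, GFAP-IL6 mouse 1 was at 0.41 and the others between -0.035 and 0.072, a gap of 0.757 of the range.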

How the results depend on the processing

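The 10 genes were chosen on the genotype difference, so their calls in it under other settings are a description and no support. The log2 fold change of Slc38a5 in the summed comparison was 2.05 to 2.29 over 12 alternatives. With each mouse left out in turn, 1 to 3 of the 10 genes were called (3 without GFAP-IL6 mouse 1, Slc38a5, Cldn5 and Ly6c1), and 1 to 4 by the adjusted p alone (Slc38a5 as the single gene without WT mouse 1 or 2 or GFAP-IL6 mouse 2 or 3). DESeq2 left Slc38a5 and Slc2a1 by the adjusted p alone, and leaving the low-count filter off added Cldn5. Within the sets, 1 to 2 genes were called with a mouse left out: Ly6c1 joined in 2 ng set A and 1 ng set B without GFAP-IL6 mouse 1 and in 1 ng set B without WT mouse 3, and Cldn5 in 2 ng set B without WT mouse 1. Between cDNA amounts the count of 5 was 4 to 8 with a mouse left out (4, without Pecam1, when GFAP-IL6 mouse 3 was left out and in DESeq2) and 1 without the mouse block, and the set contrast kept 1 gene, Slc7a5, throughout. Same-numbered WT and GFAP-IL6 mice did not deviate together over the tested genes (r of -0.049, -0.032 and -0.034 for the 3 pairs). With deviations taken from a mean of only 3 mice per genotype, these r cannot tell whether the mice were matched. A replicate block left 1 of the 10 genes called, and 149 in place of 180 of all genes. Over all genes, the count by the adjusted p alone was 263, and 462 with the low-count filter off; without GFAP-IL6 mouse 3 it was 146, and 106 with the fold threshold. The causes were not tested. Depth limits Pecam1, with 1 to 38 reads per library, and Cldn5 in WT, with 5 to 25.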
